A study of Homo sapiens with 4 samples.

Results

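The outer ends of chromosome 11 were described in HEK293 and Synph-293 cells. In Synph-293, genes near the short-arm end were mostly higher and genes near the long-arm end mostly lower than in HEK293. Block 1 held the genes that end at or before position 9000000 (GRCh38), and block 2 those that start at or after position 83000000. The rows between them served as the reference. IGF2, H19, the IFITM genes and HYOU1 were left out of all 3 regions. In all, 1513 of the 60676 genes of the deposited table were members, with 459 in block 1 and 1054 in block 2, and 1841 genes lay between. A total of 110 block 1 genes, 249 block 2 genes and 516 genes between had enough counts to be tested. The members were chosen by position, with edges selected on the log2 fold changes of these same libraries, so the shifts of the blocks are a description and carry no test.

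RNA-seq covered 2 libraries labelled HEK293, the untreated wild-type line derived from human embryonic kidney, and 2 labelled Synph-293, the same line with synphilin-1 overexpressed, likewise untreated and grown in the same serum-containing medium. Synphilin-1 is a cytoplasmic protein that binds alpha-synuclein and is encoded by SNCAIP. Neither the vector nor its promoter is named in the labels, and the origin of Synph-293 (clone or pool) and of the replicates (separate cultures or not) is open there, so p-values measure the spread between these libraries, which may be technical. Library totals lay between 13284417 and 16998732 counts, and SNCAIP had 17 and 16 counts in HEK293 against 22911 and 24834 in Synph-293. Of 8 markers of HEK293 and embryonic kidney, 6 reached a mean of 1 CPM, the count scaled to library size,, while NEFM and PAX8 did not, and the summed level of the list was 1388 to 1696 CPM in the HEK293 libraries and 2503 to 2843 CPM in Synph-293. Blood markers summed to 34.4 to 36.5 and 25.6 to 32.2 CPM, with 2 of 5 at 1 CPM or more and PTPRC, CD14 and CD3E below it. A single gene of that list gave most of its sum in every library, so the sum does not stand for the list as a whole. Endothelial markers summed to 4.03 to 4.12 and 5.59 to 6.44 CPM (1 of 4, with KDR, PECAM1 and CDH5 below), and fibroblast markers to 39.3 to 40.1 and 62.2 to 63.2 CPM (3 of 5, with DCN and COL1A2 below). The lists held no marker at 0, and their part in the results was not tested. In such bulk samples fewer cells of a type and less RNA per cell cannot be told apart.

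The short-arm end of chromosome 11 is gene-dense and holds an imprinted cluster, in which some genes are read from the maternal or the paternal copy alone, next to arrays of olfactory receptor and TRIM genes. The long-arm end holds genes of the DNA damage response, of mitochondrial metabolism and of neural adhesion. Neighbouring genes can share chromatin state and chromosome copy number, and HEK293 is known for an aneuploid karyotype. Neither DNA copy number nor chromatin was measured in these libraries, so their part in the shifts was not tested.

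Neighbouring genes that start from the same stretch of DNA on opposite strands are shown here as sequence, because in most such pairs both partners lay on the side of their block. In block 1 the mitochondrial deacetylase SIRT3 and the proteasome subunit PSMD13 start 35 bases apart in the deposited gene table, and in block 2 the ribosomal protein gene RPS25 and TRAPPC4, a subunit of a vesicle tethering complex, start 72 bases apart there. RefSeq puts the starts 45 and 423 bases apart, and the windows shown follow RefSeq. The promoter windows (RefSeq, GRCh38.p14, 250 bases before to 50 after each start) are written 5′ to 3′ on the strand of the gene. Capitals mark matches on either strand to the GC box GGGCGG and to CCGGAAG, a core bound by ETS factors.
SIRT3, chr11:236882-237181, minus strand: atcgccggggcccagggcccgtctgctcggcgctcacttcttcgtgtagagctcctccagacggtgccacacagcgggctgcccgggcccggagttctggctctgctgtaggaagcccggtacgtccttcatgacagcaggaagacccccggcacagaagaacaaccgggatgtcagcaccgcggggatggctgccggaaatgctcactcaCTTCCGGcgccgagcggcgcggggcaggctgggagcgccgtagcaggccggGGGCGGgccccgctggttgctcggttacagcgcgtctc
PSMD13, chr11:236726-237025, plus strand: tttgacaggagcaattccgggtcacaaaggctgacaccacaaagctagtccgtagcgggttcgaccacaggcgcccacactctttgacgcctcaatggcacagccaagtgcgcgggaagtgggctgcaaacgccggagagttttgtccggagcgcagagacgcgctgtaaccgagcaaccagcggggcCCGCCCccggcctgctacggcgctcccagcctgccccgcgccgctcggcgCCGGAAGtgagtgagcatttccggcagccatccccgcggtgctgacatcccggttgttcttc
RPS25, chr11:119018294-119018593, minus strand: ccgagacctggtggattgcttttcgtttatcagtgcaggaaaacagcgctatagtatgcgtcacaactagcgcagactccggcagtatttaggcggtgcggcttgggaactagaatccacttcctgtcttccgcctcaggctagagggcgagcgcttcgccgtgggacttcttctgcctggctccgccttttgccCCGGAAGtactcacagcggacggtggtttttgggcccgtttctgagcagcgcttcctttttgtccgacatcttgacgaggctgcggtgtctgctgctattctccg
TRAPPC4, chr11:119018516-119018815, plus strand: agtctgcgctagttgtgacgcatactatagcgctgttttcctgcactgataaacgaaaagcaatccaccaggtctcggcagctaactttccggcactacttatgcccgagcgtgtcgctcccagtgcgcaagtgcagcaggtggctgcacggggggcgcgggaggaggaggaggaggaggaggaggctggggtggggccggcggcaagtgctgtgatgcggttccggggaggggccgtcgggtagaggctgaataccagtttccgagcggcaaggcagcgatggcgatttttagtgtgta
The windows of SIRT3 and PSMD13 share 144 bases and those of RPS25 and TRAPPC4 share 78 bases, read as reverse complements of each other. Both motif matches of the SIRT3 and PSMD13 windows lie in the shared stretch, and the TRAPPC4 window holds neither motif. Of the 27305 promoter windows of that table, 44.6% hold the GC box and 10.7% hold CCGGAAG on either strand, so neither is rare. The TATA box TATAAA, searched in the same way and held by 12% of windows, is in none of those shown. Windows were matched by symbol for 72 of 110 block 1 genes and 169 of 249 block 2 genes, which is too few for a comparison of base composition between regions.

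Block 1 genes were at a median of 1.52-fold of their HEK293 level in Synph-293, and block 2 genes at 0.735-fold. On the log2 scale the median was 0.61 in block 1 (quartiles 0.33 and 0.98) and -0.44 in block 2 (quartiles -0.66 and -0.12). Genes between the blocks had a median of 0.09 and genes of other chromosomes one of -0.02. The log2 fold change was above 0 for 99 of 110 block 1 genes and below 0 for 195 of 249 block 2 genes. Over all 16421 genes tested, 48.7% were above 0.

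**Figure D1:**
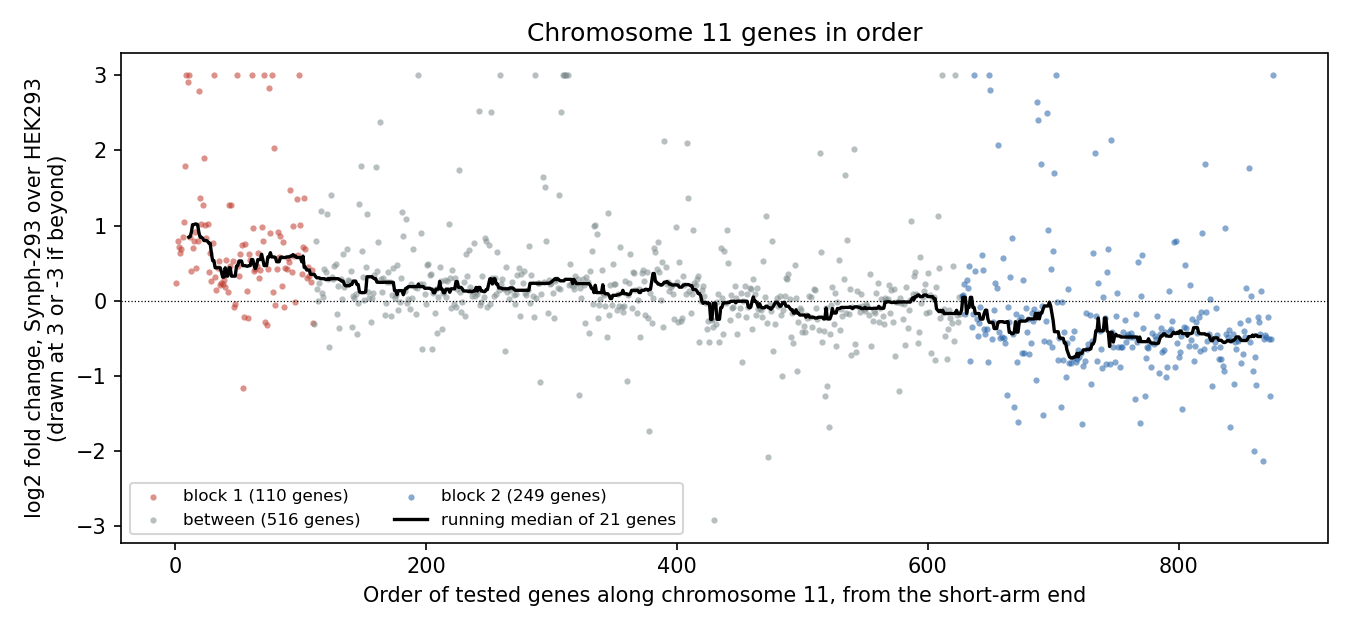
The log2 fold change of Synph-293 over HEK293 (y axis) is plotted for 875 tested genes in their order along chromosome 11 (x axis), with the running median of 21 genes as a line and values beyond 3 drawn at 3. The line lies at 0.32 to 1.02 in block 1 and at -0.76 to 0.05 in block 2, with its lowest value around ACAT1.

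The genes that passed the test across all genes leaned the same way (quasi-likelihood test of edgeR, p adjusted after Benjamini and Hochberg, threshold 0.05). In block 1, 52 genes were called higher and 1 lower, against 10.0% of all genes called higher and 6.58% called lower. Among block 2 genes, 84 were called lower and 18 higher. These calls come from the contrast that drew the blocks, so nothing is read from their distance to the background. Between the blocks, 52 genes were called higher and 15 lower. The numbers rested on single libraries, as the count called higher in block 1 was 31 without Synph-293 replicate 1, 37 without Synph-293 replicate 2, 58 without HEK293 replicate 1 and 62 without HEK293 replicate 2, and the count called lower in block 2 was 28, 33, 96 and 115 in that order. The block 2 count was also 42 and 38 with limma on log2(TPM + 1) and log2(TPM + 0.1), where TPM is a length-scaled transcript level.

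Every library lay on the side of its group. Relative to the mean of the 4 libraries, the median log2 level of block 1 genes was -0.30 in HEK293 replicate 1 and -0.33 in replicate 2, and 0.34 in Synph-293 replicate 1 and 0.27 in replicate 2. The block 2 values in the same order were 0.25, 0.15, -0.22 and -0.18. Groups did not overlap in either block, and replicates of a group lay closer to each other than to the other group. The edges were chosen on the contrast of these groups, so nothing is read from their separation. Paired gene by gene, replicate 1 minus replicate 2 had a median of 0.06 in HEK293 and 0.04 in Synph-293 for block 1, and of 0.08 and -0.07 for block 2, a comparison that the choice of the edges did not use.

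**Figure D2:**
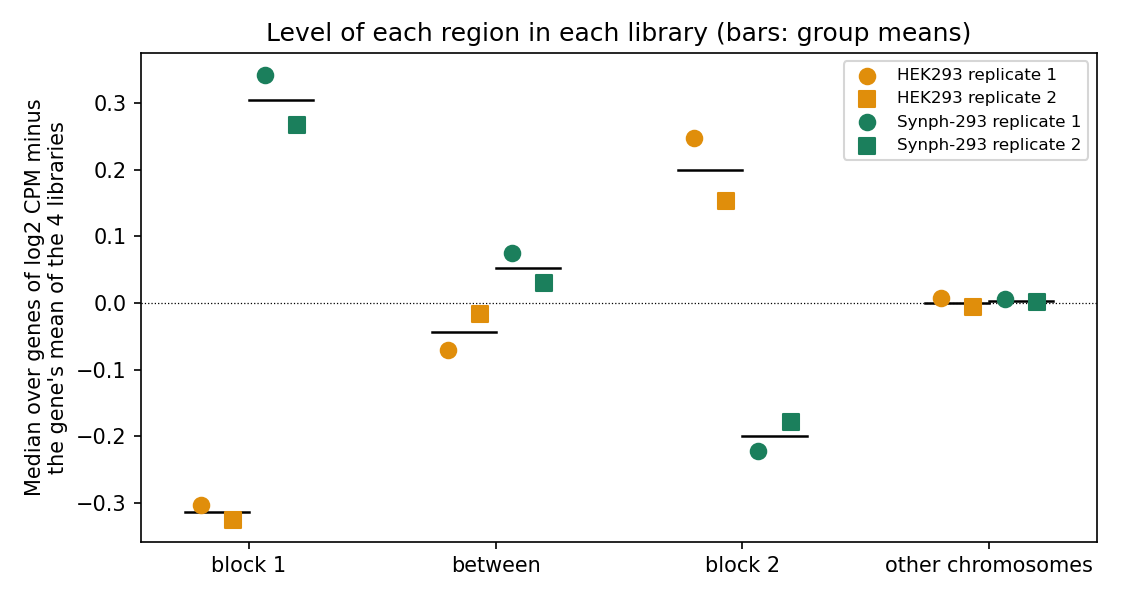
Each point is the median over the genes of a region of log2 CPM minus the gene's mean of the 4 libraries (y axis), by region (x axis) and library, with bars at the group means. Block 1 points sit at -0.33 to -0.30 in HEK293 and 0.27 to 0.34 in Synph-293, block 2 points at 0.15 to 0.25 and -0.22 to -0.18, and those of other chromosomes within 0.01 of 0.

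Summed over its tested genes, block 1 took 4703 ± 53.3 CPM in the HEK293 libraries and 6524 ± 196.2 CPM in Synph-293, a ratio of 1.39 (SD, n = 2 each). The block 2 sum was 14558 ± 913.8 CPM in the HEK293 libraries and 10620.4 ± 651.1 CPM in Synph-293, a ratio of 0.73. These sums weight abundant genes most, and lay on the same side as the medians.

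Among individual genes, both Synph-293 libraries were above both HEK293 libraries for 90 of the 110 block 1 genes, against 30.5% of all genes tested. In block 2 both were below for 159 of 249 genes, against 29.1% of all genes. The opposite order was found for 3 block 1 genes and 37 block 2 genes. Replicates of the remaining genes overlapped. These counts come from the contrast that drew the blocks, so nothing is read from their distance to the background. They also hold genes that passed the filter only through Synph-293 and so had to be apart. An example is OR51E2, with 0 and 0 counts in HEK293 against 26 and 22 in Synph-293.

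**Figure D3:**
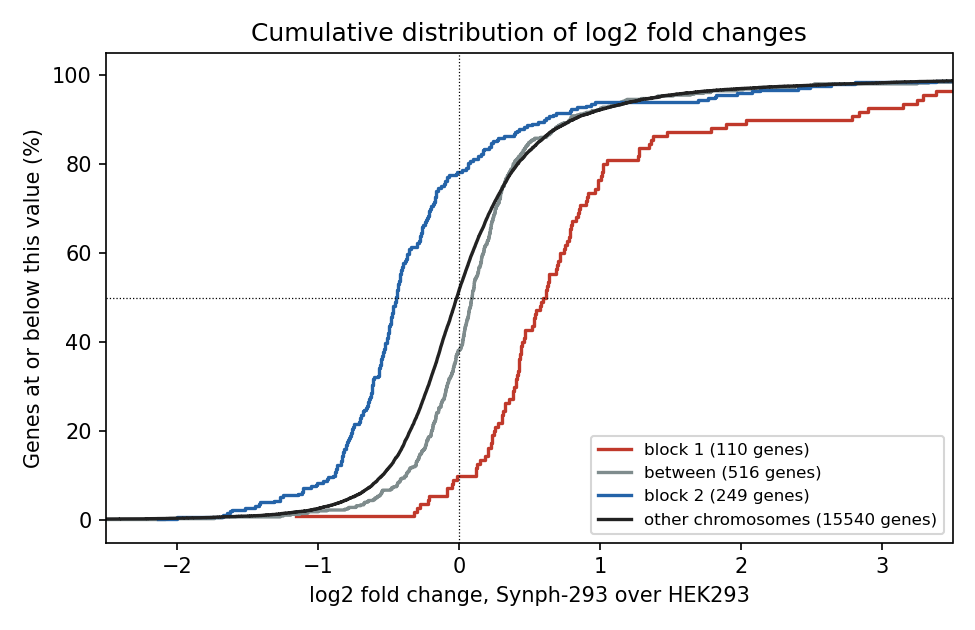
The share of genes at or below a log2 fold change (y axis, in percent) is drawn against that value (x axis) for block 1, the genes between, block 2 and other chromosomes. The block 1 curve crosses 50% at 0.61 and the block 2 curve at -0.44, on either side of the 15540 genes of other chromosomes.

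The shift of block 1 was uneven along its length. The running median of 21 genes was 1.02 near the end of the chromosome, 0.32 around POLR2L, a subunit of RNA polymerase II, and 0.64 around TRIM5. By position, the median log2 fold change was 0.69 over the 57 genes that start in the first 3 Mb, 0.58 over the 20 genes at 3 to 6 Mb and 0.52 over the 33 genes at 6 to 9 Mb. Beyond the edge it was 0.22 over the 25 genes at 10 to 15 Mb, and 0.17 over all 354 genes at 9 to 66 Mb. From 66 to 83 Mb the median was -0.10 over 161 genes. The median thus passed from above to slightly below 0 on the long arm, but not in a steady decline into block 2. It was -0.09 over the 117 genes at 65 to 70 Mb, -0.08 over the 50 at 70 to 75 Mb and 0.03 over the 37 at 75 to 80 Mb.

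Block 2 did not start at its edge. The 30 genes that start at 83 to 93 Mb had a median log2 fold change of -0.01, with 4 called higher and 2 lower. For this count and those below, the share over all genes tested was 10.0% called higher and 6.58% called lower. Within that stretch the values were uneven. The median was 0.07 over the 11 genes at 80 to 85 Mb, a stretch that spans the edge. It was -0.27 over the 16 genes at 85 to 90 Mb, of which 31.2% were above 0 and 2 were called in each direction. The label of a lower end block thus does not hold for the median of the first 10 Mb, although most genes at 85 to 90 Mb were lower. From 93 Mb on, a position chosen after the values were seen, the median over 219 genes was -0.48 and 82 genes were called lower. The lowest 5 Mb stretch was 105 to 110 Mb, where the median over 20 genes was -0.70 and 12 genes were called lower. The neighbouring stretch of 100 to 105 Mb had a median of 0.18 over 16 genes, with 5 called in each direction. Outwards the level was even, with medians of -0.59, -0.48, -0.44, -0.52 and -0.50 in the successive 5 Mb stretches from 110 to 135 Mb.

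**Figure D4:**
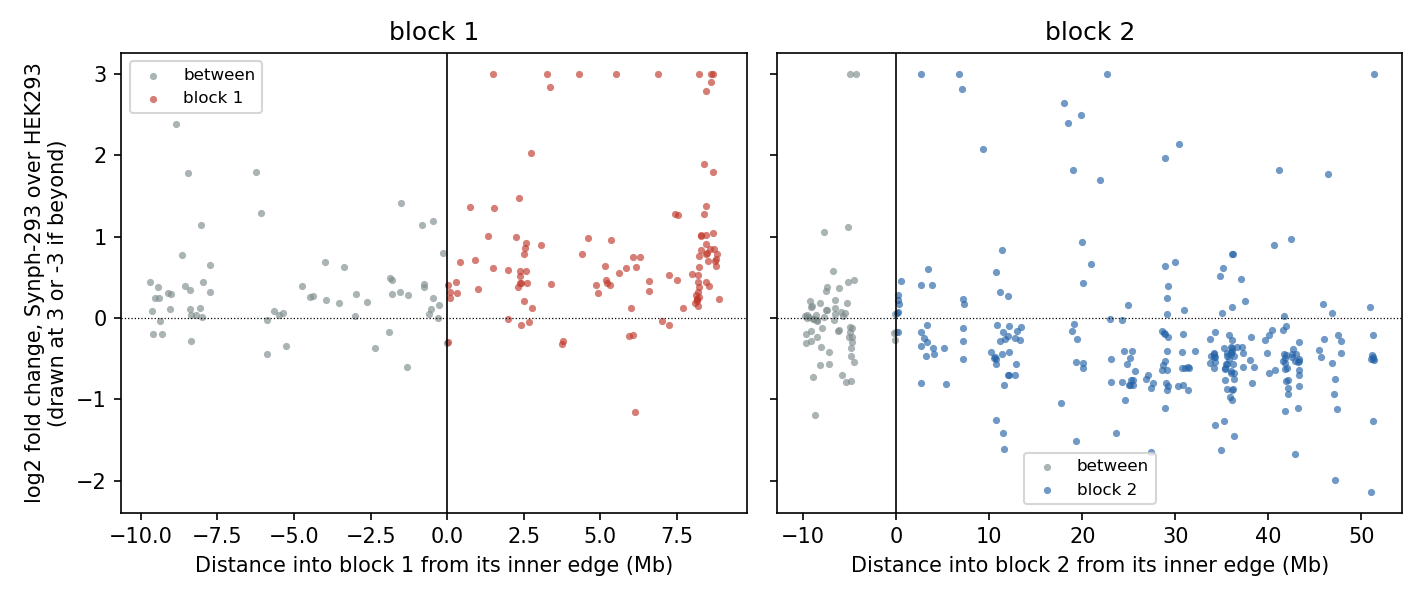
The log2 fold change (y axis) is plotted against the distance of each gene into a block from its inner edge in Mb (x axis, negative outside the block), for block 1 on the left and block 2 on the right. Values beyond 3 are drawn at 3, and block 1 genes lie mostly above 0 from close to the edge, whereas block 2 genes spread around 0 for the first 10 Mb and lie mostly below it farther in.

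None of the genes named here beside the edges was called. Just inside block 1, the log2 fold change was 0.41 ± 0.17 (SE) for TMEM9B, 0.25 ± 0.18 for AKIP1 and -0.30 ± 0.25 for the antisense RNA TMEM9B-AS1. Just outside it was -0.31 ± 0.19 for NRIP3, 0.16 ± 0.17 for DENND5A and 0.79 ± 0.51 for SCUBE2, which had under 1 CPM in each library. At the edge of block 2 the values were 0.07 ± 0.21 for RAB30-DT and 0.08 ± 0.19 for PCF11, a factor that ends transcription, inside, and -0.17 ± 0.20 for RAB30, 0.05 ± 0.17 for DDIAS and -0.28 ± 0.19 for PRCP outside.

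The shift differed with the level of the gene in both blocks. In block 2 the median log2 fold change was 0.07 over 67 genes under 5 CPM on average, and -0.48, -0.48 and -0.50 over 45 genes at 5 to 20 CPM, 100 genes at 20 to 100 CPM and 37 genes above. In block 1 the medians of the same classes were 0.99 over 25 genes, 0.75 over 27, 0.56 over 44 and 0.42 over 14. Over all genes tested the classes had medians of 0.22, 0.00, -0.08 and -0.02. Low-count genes that pass the filter through the group where they are high must differ, and of the members 349 in block 1 and 805 in block 2 were not tested. Of genes at 20 CPM or more, 54 of 58 in block 1 and 125 of 137 in block 2 were shifted in the direction of their block. Over all genes tested, 40.5% of those at 20 to 100 CPM and 47.5% of those above were above 0.

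Both strands and both main classes of RNA took part. In block 1 the median was 0.57 over 48 plus-strand and 0.62 over 62 minus-strand genes, and 0.54 over 96 protein-coding genes and 1.04 over 12 long noncoding RNAs. In block 2 it was -0.48 over 135 plus-strand and -0.41 over 114 minus-strand genes, and -0.47 over 222 protein-coding genes and -0.24 over 20 long noncoding RNAs. Reads of overlapping genes may have been counted together, as the library kit was stranded but the labels do not say how strand was used in counting. A total of 63 block 1 genes and 129 block 2 genes overlap another gene with a count, in most cases one on the opposite strand. Over the 47 and 120 members that overlap none, the medians were 0.69 and -0.35.

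The 8 protein-coding genes with the highest TPM in block 1 were shifted less than the block as a whole. RPL27A and RPLP2, which encode proteins of the large ribosomal subunit, and CD81, a tetraspanin, were the clearest of them. RPL27A had 466.7 and 479.0 CPM in the HEK293 libraries and 623.9 and 662.7 CPM in Synph-293, with a log2 fold change of 0.44 ± 0.17 (SE). RPLP2 had 223.3 and 244.5 against 338.5 and 296.0 CPM, a log2 fold change of 0.44 ± 0.17. CD81 had 309.2 and 230.7 against 350.9 and 392.4 CPM, or 0.46 ± 0.19. In all 3 genes the groups did not overlap, yet none was called.

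The other 5 of these 8 genes had smaller differences. TALDO1, an enzyme of the pentose phosphate pathway, had 94.9 and 128.5 against 160.1 and 131.2 CPM, and the initiation factor gene EIF3F had 137.1 and 175.0 against 223.3 and 174.9 CPM. The tetraspanin gene CD151 had a log2 fold change of 0.23 ± 0.18. Those of the lysosomal protease gene CTSD and of the mitochondrial ribosomal protein gene MRPL23 were -0.08 ± 0.19 and -0.04 ± 0.19, with replicates that overlapped. CTSD had 288.2 and 206.6 CPM in the HEK293 libraries, a gap wider than that between the groups.

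In block 2, APLP2, a relative of the amyloid precursor protein, and RPS25, of the small ribosomal subunit, stood lowest relative to HEK293 among the 8 genes of highest TPM. APLP2 (ENSG00000084234) had 976.9 and 691.9 CPM in the HEK293 libraries and 370.9 and 504.8 CPM in those of Synph-293, a log2 fold change of -0.93 ± 0.23. RPS25 had 317.8 and 270.5 against 184.5 and 182.6 CPM, or -0.68 ± 0.17. The ATP synthase subunit gene ATP5MG had 102.1 and 103.4 against 71.6 and 61.7 CPM, or -0.62 ± 0.16. The groups of all 3 genes were apart, and replicates of APLP2 differed most.

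TAF1D, of a complex that starts ribosomal RNA transcription, and STT3A, a catalytic subunit of the enzyme that glycosylates proteins in the ER, had log2 fold changes of -0.50 ± 0.20 and -0.48 ± 0.19. HSPA8, the constitutive cytosolic chaperone, had 1084.5 and 1097.4 against 839.2 and 1044.4 CPM, or -0.21 ± 0.20. TMEM123 had 360.4 and 250.6 against 214.5 and 294.9 CPM, and its groups overlapped. The histone variant gene H2AX had 160.3 and 170.4 against 199.5 and 163.9 CPM and did not share the direction of its block.

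**Figure D5:**
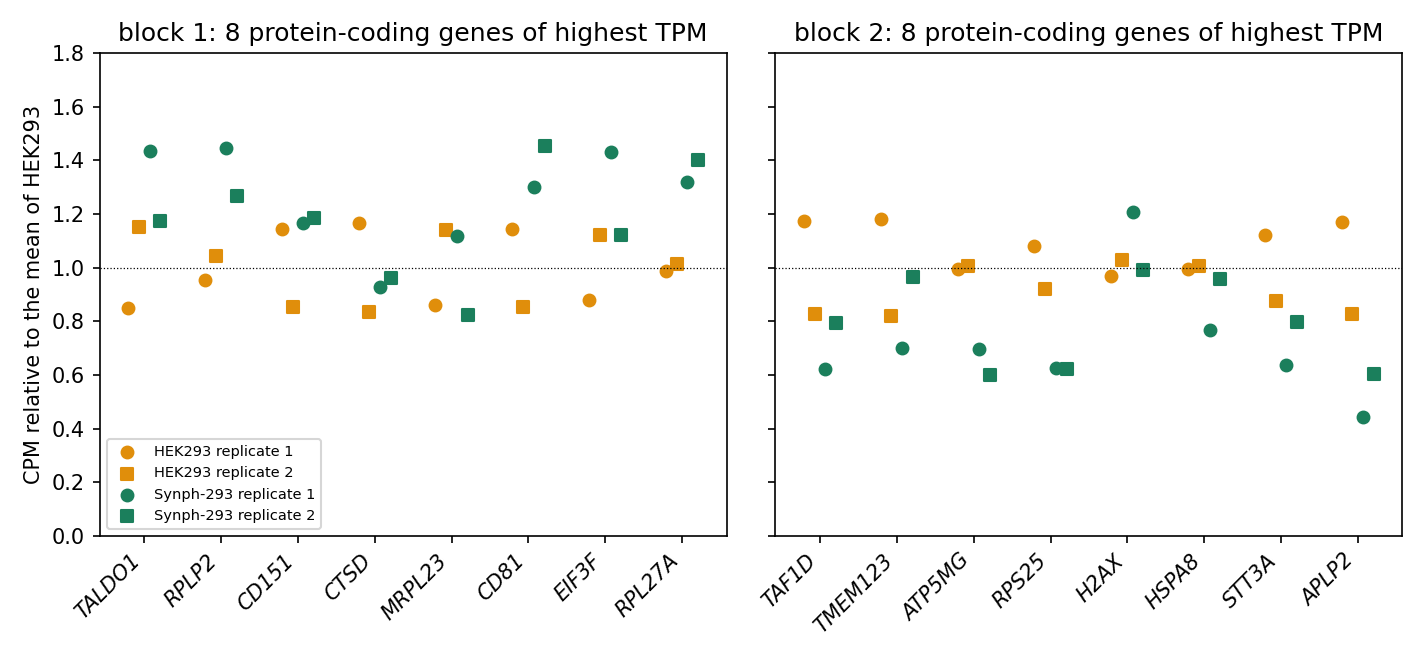
CPM of each library relative to the mean of the HEK293 libraries (y axis, linear) is shown for the 8 protein-coding genes of highest TPM in each block (x axis, in chromosome order). Synph-293 points of RPL27A, RPLP2 and CD81 lie above both HEK293 points, those of APLP2, RPS25 and ATP5MG lie below both, and those of CTSD lie between them.

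The largest rises named among block 1 genes with at least 5 CPM in Synph-293, all called, went far beyond the median of the block. Clone-named, antisense, pseudogene and readthrough genes were set aside, as were genes with overlapping replicates. The antisense RNA LMNTD2-AS1, with a log2 fold change of 2.79 ± 0.28, was left out for that reason. PKP3, which encodes the desmosomal protein plakophilin, had 1.90 and 1.42 CPM in the HEK293 libraries and 18.1 and 17.1 CPM in those of Synph-293, a log2 fold change of 3.39 ± 0.24. The interferon-induced antiviral gene TRIM22 had 2.19 and 0.824 against 14.4 and 15.5 CPM, or 3.25 ± 0.32. B4GALNT4, a glycosyltransferase gene, had 8.01 and 5.92 against 52.9 and 52.2 CPM, or 2.90 ± 0.19. Since genes with overlapping replicates were set aside, the separation of their groups follows from that choice. CCKBR, the receptor for gastrin and cholecystokinin, and IRF7, a transcription factor of the interferon response, had log2 fold changes of 2.03 ± 0.27 and 1.89 ± 0.25.

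Only CDKN1C, an imprinted inhibitor of cyclin-dependent kinases, was called lower in block 1. Its libraries had 12.1 and 11.2 CPM in the HEK293 libraries and 5.60 and 4.85 CPM in those of Synph-293, a log2 fold change of -1.15 ± 0.21. It was also the 1 lower call of the block in each of the 4 fits that left out a library. CARS1, the cysteinyl-tRNA synthetase, had 59.4 and 60.2 against 51.9 and 50.6 CPM, or -0.22 ± 0.15. CHID1 had 0.19 ± 0.16 and the arfaptin gene ARFIP2 0.20 ± 0.15, and neither was called.

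Block 2 held falls deeper than its median in genes of several kinds. BIRC3, an inhibitor of apoptosis, had 10.9 and 8.61 CPM in the HEK293 libraries and 2.98 and 3.87 CPM in those of Synph-293, a log2 fold change of -1.52 ± 0.24. GUCY1A2, a subunit of soluble guanylate cyclase, had 14.9 and 12.2 against 4.71 and 5.52 CPM, or -1.41 ± 0.21. BACE1, the beta-secretase that cleaves the amyloid precursor protein, had 104.7 and 93 against 37.6 and 42.1 CPM, or -1.31 ± 0.16. These genes were picked among those whose replicates did not overlap, so the separation of their groups follows from that choice. The adhesion gene MPZL2 and the galactosidase-like gene GLB1L3 both had log2 fold changes of -1.27, with SE of 0.27 and 0.24.

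Against the direction of block 2, 54 genes had a log2 fold change above 0. Of these, 35 had under 5 CPM on average, a class in which 61.0% of all genes tested were above 0. At 20 CPM or more, 12 of 137 block 2 genes were above 0. Larger rises of genes under 5 CPM in both groups, such as CCDC89 with 4.85 ± 0.46, were set aside by the rule for named genes. The progesterone receptor gene PGR had 1.13 and 0.899 against 6.14 and 6.69 CPM, a log2 fold change of 2.64 ± 0.30. FAT3, an atypical cadherin, had 18.9 and 14.4 against 59.3 and 81.8 CPM, or 2.08 ± 0.20. BARX2, a homeobox gene, had 1.25 and 2.32 against 5.96 and 5.95 CPM, or 1.77 ± 0.31. PGR and BARX2 were low in HEK293, whereas FAT3 was already well above them there. FEZ1, an adaptor for axonal transport, had 0.97 ± 0.20, and the neural adhesion molecule gene NCAM1 0.69 ± 0.18, with 58.3 and 47.9 against 74.2 and 97.4 CPM.

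By role, the TRIM and proteasome list stood highest in block 1, with a median log2 fold change of 0.86 over 9 genes tested. PSMD13 was its only proteasome gene. In all, 7 were called higher and 0 lower. TRIM34 was among the 7, with 11 and 6 counts in HEK293 against 72 and 62 in Synph-293. It passed the filter only through Synph-293, so its call adds nothing to the count. The capsid-binding restriction factor gene TRIM5 had 22.7 and 24.9 against 44.3 and 44.3 CPM, and TRIM68 had 16.7 and 18.9 against 33.1 and 28.4 CPM. PSMD13, whose promoter is shown above with that of SIRT3, had 59.3 and 70.7 against 114.8 and 95.4 CPM, a log2 fold change of 0.69 ± 0.17. Growth signalling and adhesion genes had a median of 0.55 over 14, with 6 called higher and 0 lower. RIC8A, a chaperone of G protein alpha subunits, had 66.6 and 71.8 against 124.2 and 103.5 CPM. For comparison, the median over all genes tested was -0.01, and the lists were drawn up with earlier results of these data known. For these lists and the block 1 lists below, the share called higher was 47.3% over block 1 and 10.0% over all genes tested.

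Lysosomal, mitochondrial and gene expression roles were shifted less in block 1. Of 9 lysosome and lipid genes, 2 were called higher and 0 lower, with a median of 0.42. The lysosomal peptidase gene TPP1 had 113.4 and 93.6 against 136.7 and 160.3 CPM, and the clathrin adaptor gene AP2A2 66.8 and 84.9 against 115.8 and 104.3 CPM. Neither was called. Among 8 mitochondrial and metabolic genes 3 were called higher and 0 lower, with a median of 0.39. PGGHG, which acts on the glucose of collagen, had 61.8 and 41.7 against 93 and 94.3 CPM, SIRT3 had 12.5 and 14.2 against 20.6 and 21 CPM, and the import factor gene TIMM10B 19.7 and 19.6 against 32.1 and 35.6 CPM. Of 13 genes of transcription, replication and translation, 5 were called higher and 0 lower, with a median of 0.44. The ribonucleotide reductase gene RRM1 was among those not called, with 227.2 and 280.9 against 344.4 and 328.2 CPM.

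The list headed imprinted cluster in block 1, without IGF2 and H19, split. Of 9 genes tested 4 were called higher and 1 lower, with log2 fold changes from -1.15 for CDKN1C to 0.75 for PHLDA2 and KCNQ1OT1. The list is not a single stretch, as ZNF215, among the 4 called higher, starts at position 6926404 and CDKN1C at 2883213. KCNQ1OT1, a long noncoding RNA of the cluster, had 21.5 and 18.4 CPM in the HEK293 libraries and 28.4 and 38.5 CPM in those of Synph-293, a log2 fold change of 0.75 ± 0.19, and it overlaps a gene on the opposite strand. The histone chaperone gene NAP1L4 had 170.7 and 193.8 against 213.6 and 184.0 CPM, with groups that overlapped. Of the 14 listed genes, 5 had too few counts to be tested.

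Mitochondrial and metabolic genes stood lowest by role in block 2, with a median log2 fold change of -0.80 over 17 genes tested. Of these, 13 were called lower and 0 higher. For this list and those below, the share called lower was 33.7% over block 2 and 6.58% over all genes tested. The share called higher was 7.23% over block 2 and 10.0% over all genes tested. ACAT1, a mitochondrial thiolase of ketone and isoleucine metabolism, had 138.5 and 156.3 against 79.5 and 86.4 CPM, or -0.83 ± 0.16. DLAT, a core subunit of pyruvate dehydrogenase, had 121.1 and 136.2 against 77.1 and 71.2 CPM, or -0.80 ± 0.16. SDHD, a membrane anchor of respiratory complex II, had 73.3 and 84.8 against 49.5 and 35.7 CPM, or -0.89 ± 0.18. All 17 genes were below 0, against 78.3% of all block 2 genes tested, and in these 3 the groups did not overlap. ACAT1, DLAT and SDHD lie in the lowest stretches of the block, where the median was -0.70 at 105 to 110 Mb and -0.59 at 110 to 115 Mb. Role and position were not told apart here. SC5D, of cholesterol synthesis, had 180.1 and 119.8 against 73.9 and 98.8 CPM.

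Other roles of block 2 leaned the same way. Of 11 ubiquitin and cell death genes 7 were called lower and 1 higher, with a median of -0.55, and the ubiquitin chain elongation factor UBE4A had 150.3 and 121.8 against 75.3 and 85.3 CPM. The ubiquitin ligase gene CBL had 97.5 and 119.6 against 76.9 and 69.7 CPM. Of 16 secretory and membrane traffic genes 7 were called lower and 0 higher, with a median of -0.53, and ARCN1, a subunit of the coat of retrograde vesicles, had 234.5 and 293.8 against 178.6 and 177.4 CPM. TRAPPC4, the partner of RPS25 in the promoter pair, had 27.5 and 33.0 against 20.4 and 17.9 CPM, or -0.66 ± 0.17.

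Nuclear roles followed with medians near that of the block. Of 14 DNA damage and cell cycle genes 6 were called lower and 0 higher, with a median of -0.47. The double-strand break nuclease gene MRE11 had 203.3 and 175.9 against 132.4 and 147.7 CPM, and the condensin gene NCAPD3 216.6 and 219.5 against 158.1 and 160.1 CPM. Of 17 chromatin and transcription genes 5 were called lower and 1 higher, with a median of -0.48, and the Hippo pathway coactivator YAP1 had 102.5 and 115.9 against 110.0 and 98.2 CPM. Chaperone, translation and RNA genes had a median of -0.30 over 13, with 4 called lower and 0 higher, and the RNA helicase DDX6 had 134.3 and 146.4 against 107.6 and 90.2 CPM.

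Adhesion and neural membrane genes of block 2 had a median log2 fold change of 0.10 over the 17 of 25 listed genes tested. Of these, 5 were called higher, namely FAT3, FEZ1, NCAM1, GRIA4 and DRD2, and 2 lower. GRIA4, a glutamate receptor subunit, had 3 and 1 counts in HEK293 against 29 and 19 in Synph-293, and the dopamine receptor gene DRD2 had 2 and 3 against 13 and 12. Both passed the filter only through the group where they were high, so their calls add nothing to the count. MCAM, an adhesion molecule of the immunoglobulin family, had 184.5 and 141.0 against 84.1 and 109.6 CPM, or -0.75 ± 0.19. The synaptic adhesion gene CADM1 had 240.8 and 162.4 against 130.7 and 173.0 CPM, and its groups overlapped.

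Pairs of protein-coding genes on opposite strands whose starts lie within 1000 bases in the deposited gene table were looked at as neighbours. In block 1 both partners were above 0 in 11 of 11 pairs, and in block 2 both were below 0 in 15 of 19 pairs. Since 90.0% of all block 1 genes were above 0 and 78.3% of all block 2 genes below 0, these counts say nothing particular to such pairs. SIRT3 and PSMD13 had log2 fold changes of 0.64 ± 0.17 and 0.69 ± 0.17, and RPS25 and TRAPPC4 of -0.68 ± 0.17 and -0.66 ± 0.17. ARFIP2 and TIMM10B, with starts 22 bases apart, differed more, at 0.20 ± 0.15 and 0.78 ± 0.16. FEZ1 and STT3A, whose starts overlap by 856 bases, went in opposite directions, at 0.97 ± 0.20 and -0.48 ± 0.19.

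The olfactory receptor, mucin, KRTAP5, apolipoprotein and CD3 genes contributed few reads. Of 122 olfactory receptor genes in block 1, 15 had a count and 1, OR51E2, was tested, and of 47 in block 2, 2 had a count. Mucin and KRTAP5 genes of block 1 and the apolipoprotein and CD3 genes of block 2 were too low to test. Of 9 matrix metalloproteinase genes of block 2, 7 had a count and 2, MMP12 and MMP13, were tested.

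Medians of whole chromosomes with at least 100 genes tested ranged from -0.27 for chromosome 10 to 0.32 for the X chromosome. That of chromosome 11 was 0.06 over 881 genes. Shifts of that kind over shorter stretches of other chromosomes were not compared here.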

How the data were processed

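Poly(A) RNA libraries of 4 samples, 2 a group, were analysed from a table of 60676 genes. Per the submitters' processing notes, Cufflinks 2.2.1, HTSeq 0.11.2, featureCounts 2.0.0, RSEM 1.3.1, STAR 2.7.1a and cutadapt 2.8 were used with GRCh38.p13, in roles not given in the sources used here. The counts deposited by the authors are whole numbers and were handled as rounded estimated counts, since in each library 43 to 63 genes with no count had a TPM. The TPM values, scaled by the authors for gene length and depth, served to rank genes and for alternatives, and the RPKM values deposited by the authors were not used.

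Counts were filtered in R 4.3.3 with edgeR 4.0.16 (filterByExpr, minimum count 10, minimum total 15), scaled by TMM and fitted by the quasi-likelihood test with group as the term, with Benjamini-Hochberg adjustment over 16421 genes and a threshold of 0.05. The standard error is the log2 fold change divided by the square root of F. Log2 CPM used a prior count of 2. The scripts were tested on simulated data. Alternatives used DESeq2 1.42.0 and limma 3.58.1. Library totals, from 13284417 to 16998732 counts, limit low genes most, and a count of 3 corresponded to 0.178 to 0.225 CPM. Replicates differed beyond sampling noise (chi-square per degree of freedom 24.7 in HEK293 and 17.3 in Synph-293).

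The blocks, gene lists and rules were chosen with earlier results of these data known. In each block, named genes were the 8 protein-coding genes of highest TPM, the 5 largest rises and falls with at least 5 CPM in the higher group and replicates that did not overlap (clone-named, antisense, pseudogene and readthrough genes aside), the 3 most abundant of each role list, and genes next to the edges. The text leaves some out, and a tissue-restricted family of block 1 with more reads than the others is not reported here. SIRT3, TIMM10B, SDHD, TRAPPC4 and the members named only within lists were chosen after their values were seen.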

Additional observations from a re-analysis of the deposited data

How the results depend on the processing

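The direction of both blocks was the same under all alternatives run, with a median log2 fold change of 0.492 to 0.751 in block 1 and -0.480 to -0.268 in block 2. The cause of the changes below was not tested unless the setting itself gives it. With upper quartile scaling the medians were 0.660 in block 1, -0.388 in block 2 and 0.149 between, and with no filter, which adds genes of few counts, 0.751 and -0.268. With limma on log2(TPM + 1) they were 0.492 and -0.380, and 521 genes of all chromosomes and 42 of block 2 were lower. With log2(TPM + 0.1), 1086 genes were higher and 474 lower, 38 of the latter in block 2. A filter of 5 CPM, which tests fewer genes, gave 938 higher and 685 lower, and 4 higher in block 2. The block 1 median was 0.543 over protein-coding genes and 0.535 with edges at 11 and 81 Mb. Over members that overlap no other gene, chosen after seeing the data, the medians were 0.687 and -0.350, with 24 genes higher in block 1 and 33 lower in block 2, from fewer genes.

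Leaving out each library gave 1083 to 2192 genes higher and 448 to 2026 lower over all chromosomes, 31 to 62 higher in block 1 and 28 to 115 lower in block 2, and block 1 medians of 0.553 to 0.666. A lone library is there assumed to vary like the other group. The labels do not say whether replicate numbers pair the samples. The differences of replicate 1 from replicate 2 in the groups correlated at -0.277, which cannot settle it. The mitochondrial share of counts was 10.6% and 7.76% in HEK293 replicates 1 and 2, and 7.28% and 10.9% in those of Synph-293. Its part in the counts of genes called was not tested. With the replicate block, 719 genes were lower, 54 of them in block 2. With crossed numbers, an alternative added once the data were seen, 3251 genes rose and 3016 fell, 138 of the latter in block 2.

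Among the 74 genes named, 20 of 958 alternative values changed sign, all of genes not called. Over the fits that leave out a library the log2 fold change ranged from -0.30 to 0.18 for CTSD, -0.26 to 0.17 for MRPL23, -0.51 to 0.02 for TMEM123, -0.15 to 0.02 for YAP1, -0.17 to 0.31 for RAB30-DT, -0.10 to 0.29 for PCF11, -0.52 to 0.02 for PRCP and -0.09 to 0.18 for DDIAS. MRPL23 had 0.01 with upper quartile scaling. In limma on log2(TPM + 1) and log2(TPM + 0.1), TMEM123 had 0.10 and 0.11, YAP1 0.05 and 0.05, and RAB30-DT -0.07 and -0.07.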
